A study of Penicillium oxalicum with 6 samples.

Results

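The 51 genes numbered POX05835 to POX05885 in Penicillium oxalicum were followed in mycelium with and without POX06509. All 51 IDs were present among the 9834 gene IDs of the deposited files. They were chosen by their ID numbers, as the surroundings of POX05852 to POX05866, 15 consecutive IDs that had already been seen to be higher in the strain without POX06509 in these same libraries. The differences between the strains given here therefore describe what chose the genes, and the calls made on them, from a fit across all genes, are no independent evidence.

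MuPOX06509 is a mutant of the gene POX06509, which the series title gives as a deletion. It was compared with Ku70, a mutant of the gene for the DNA end-joining protein Ku70. Each strain had 3 RNA-seq libraries, lettered F, S and T in their titles; wherever 3 values of a strain follow each other below, they are in that order. For every library about 1 g of mycelium had been moved to liquid medium and shaken for 24 h with 1% Avicel, a microcrystalline cellulose. The growth protocol names only spores of the Ku70 mutant, for the MuPOX06509 libraries as well, and does not say whether POX06509 was deleted in that mutant; strain and deletion cannot be told apart. The labels name neither separate cultures nor separate clones, so the spread between libraries may be technical. The series deals with regulators of cellulase and xylanase genes, and the comparison asks how expression differs when POX06509 is lost.

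In filamentous fungi, genes that serve the same pathway can lie side by side on a chromosome. Clusters for secondary metabolites, such as pigments, antibiotics and mycotoxins, are the best known case; such a cluster commonly holds a large synthase gene, genes for modifying enzymes, transporters and at times its own regulator. Many of these clusters are close to silent in laboratory cultures, and regulators of transcription and chromatin can switch their genes together. Locus numbers are often given along the assembled sequence, but the sources used here do not say whether those of POX05835 to POX05885 were. They also give no product names, so no function is given below for any of the 51 genes, and neighbours means neighbours in number.

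The deleted gene was checked first. POX06509 had 0, 0 and 1 counts in the MuPOX06509 libraries, against 1405, 2580 and 1851 in the Ku70 libraries. Library totals ran from 14605326 to 15219424 expected counts, where an expected count is an estimate that divides reads fitting several genes between them. Across the 8336 genes tested, log2 CPM (counts scaled to library size) of Ku70 library S correlated with those of the MuPOX06509 libraries at r = 0.965 to 0.975, against 0.945 to 0.956 for Ku70 libraries F and T. Library S was therefore the Ku70 library most like MuPOX06509. The value without it is given beside genes whose call changed, and beside POX05864, whose log2 fold change moved most in the stretch. Other genes of the stretch moved less, for example POX05858 from 4.79 to 5.35 and POX05861 from 1.53 to 1.23.

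Of the 51 genes, 47 had enough counts to be tested, 19 were called higher in MuPOX06509 and 2 were called lower. A call here is a Benjamini-Hochberg adjusted p under 0.05 in edgeR's quasi-likelihood test across all 8336 genes tested. Among all genes tested, 5.33% were called higher and 7.27% lower; since the numbers were picked on this contrast, nothing is read from the excess. The other 26 tested genes were not called, with log2 fold changes (MuPOX06509 over Ku70 throughout) of -0.25 to 0.88. The median log2 fold change was 0.54 over the 47 genes and 0.01 over all genes tested. In scaled CPM, 24 of the 47 genes lay higher in every MuPOX06509 library than in every Ku70 library and 2 lay lower; over all genes tested the shares were 15.3% and 16.5%.

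**Figure D1:**
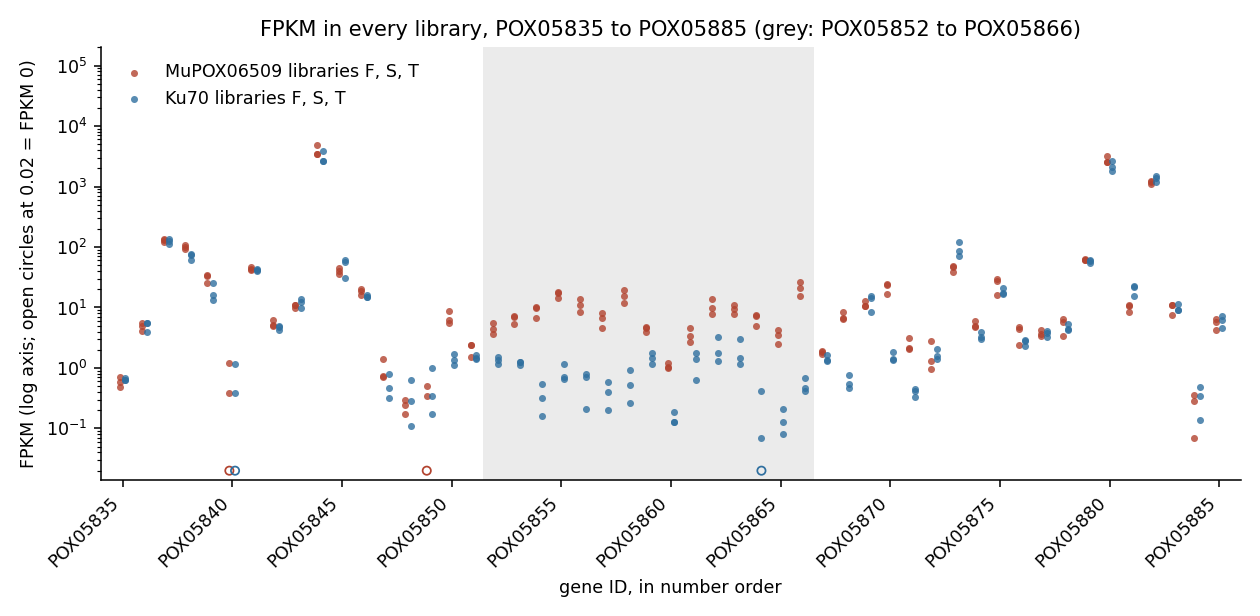
FPKM (fragment counts scaled to gene length and library size) of each of the 51 genes in number order, on a log axis, with MuPOX06509 libraries in red and Ku70 libraries in blue; open circles stand for an FPKM of 0. Within the grey band, POX05852 to POX05866, the red points of each gene lie above its blue points, while the 3 abundant genes POX05844, POX05880 and POX05882 have overlapping points.

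**Figure D2:**
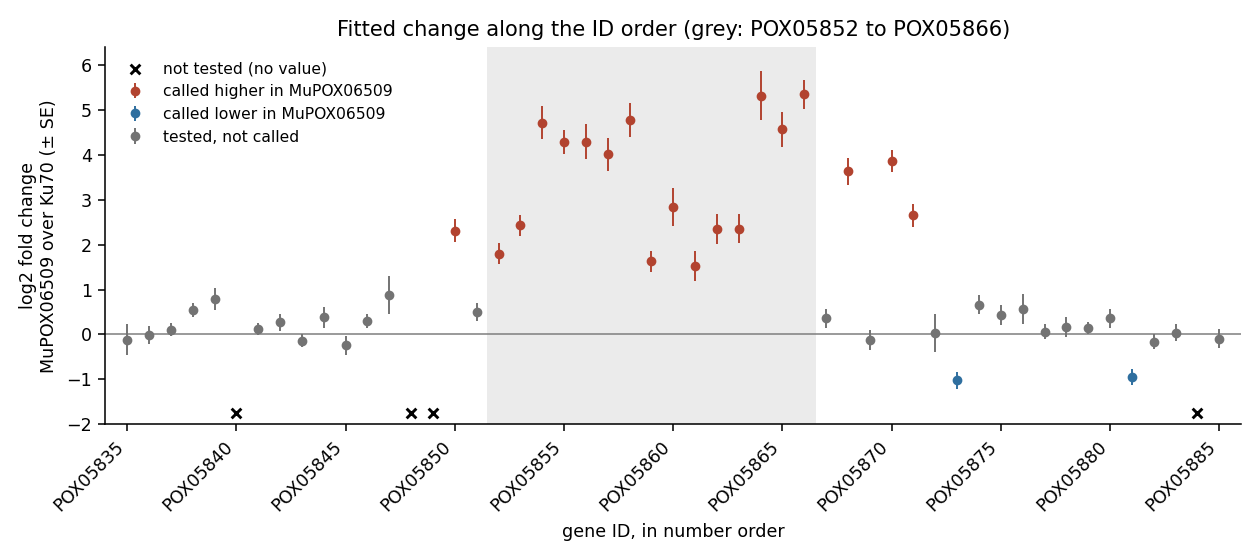
Fitted log2 fold change of MuPOX06509 over Ku70 with its approximate standard error, for the same genes in number order; crosses mark the 4 genes that were not tested and have no value. Called rises begin with POX05850 and end with POX05871, broken by POX05851, POX05867 and POX05869, and the calls lower are POX05873 and POX05881.

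The lower edge of the rise was not a clean step. Going up in number, POX05847 had 29, 15 and 16 counts in the MuPOX06509 libraries, against 17, 10 and 7 in the Ku70 libraries. Its values overlapped between the strains, and its log2 fold change of 0.88 ± 0.42 (SE) was not called. POX05848 and POX05849 followed, both too low to be tested. POX05850 was the first gene called higher. It had 131, 206 and 150 counts in the MuPOX06509 libraries, against 42, 27 and 33 in the Ku70 libraries. The lowest MuPOX06509 library of POX05850 was thus well above its highest Ku70 library, with 6.80 ± 1.61 FPKM in MuPOX06509 and 1.40 ± 0.303 FPKM in Ku70 (SD, n = 3 each) and a log2 fold change of 2.31 ± 0.26 (SE).

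POX05851 parted POX05850 from the stretch that follows. It had 175, 273 and 275 counts in the MuPOX06509 libraries, against 193, 172 and 167 in the Ku70 libraries. MuPOX06509 library F fell inside the Ku70 range, and the log2 fold change of 0.50 ± 0.21 (SE) was not called. Without MuPOX06509 library F it was 0.67 and POX05851 was called higher, so that 17 consecutive numbers from POX05850 to POX05866 were called; the 17 rest on leaving out that library. POX05851 was also the longest of the 51 genes, with an effective length of 7787 nucleotides implied by its count and FPKM.

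From POX05852 to POX05866 each of the 15 genes was called higher, and in each of them every MuPOX06509 library lay above every Ku70 library. Their log2 fold changes had a median of 4.01 and ran from 1.53 to 5.35. Together they took 2396, 2531 and 1792 counts in the MuPOX06509 libraries, against 342, 232 and 260 in the Ku70 libraries. That was 0.0151 ± 0.00279% of all counts in MuPOX06509 and 0.00183 ± 0.000367% in Ku70 (SD, n = 3 each). Even at the higher level they were a small part of the RNA, and in RNA of whole mycelium a rise in all hyphae and a larger rise in some of them cannot be told apart. Single genes had 15 to 375 counts in a MuPOX06509 library and 0 to 67 in a Ku70 library, and 9 of the 15 had fewer than 20 counts in every Ku70 library. POX05852 and POX05861 had a fractional expected count in 1 library each, so some of their reads may also fit other genes.

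The first genes of the stretch, POX05852 and POX05853, rose moderately from a level that was already measurable in Ku70. POX05852 had 5.54, 4.41 and 3.66 FPKM in the MuPOX06509 libraries, against 1.15, 1.34 and 1.50 in the Ku70 libraries. Its log2 fold change was 1.80 ± 0.24 (SE). POX05853 had 6.95, 7.17 and 5.23 FPKM in the MuPOX06509 libraries, against 1.27, 1.12 and 1.27 in the Ku70 libraries. Its Ku70 libraries were close to each other, and the log2 fold change was 2.43 ± 0.23 (SE). The next gene, POX05854, had a lower FPKM than POX05853 in Ku70 but not in MuPOX06509.

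POX05854 to POX05858 were 5 neighbours with log2 fold changes of at least 4, that is at least 16-fold. POX05854 had 185, 182 and 124 counts in the MuPOX06509 libraries, against 3, 10 and 6 in the Ku70 libraries. Its level was 8.93 ± 1.96 FPKM in MuPOX06509 and 0.340 ± 0.191 FPKM in Ku70 (SD, n = 3 each), a log2 fold change of 4.72 ± 0.37 (SE). POX05855 had 256, 267 and 216 counts in the MuPOX06509 libraries, against 18, 10 and 11 in the Ku70 libraries. In FPKM this was 16.5 ± 1.94 in MuPOX06509 and 0.853 ± 0.284 in Ku70 (SD, n = 3 each), the second highest level of the stretch in MuPOX06509, with a log2 fold change of 4.29 ± 0.27 (SE).

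POX05856 had 150, 194 and 118 counts in the MuPOX06509 libraries, against 10, 11 and 3 in the Ku70 libraries, and a log2 fold change of 4.30 ± 0.39 (SE). POX05857 had 97, 118 and 68 counts in the MuPOX06509 libraries, against 6, 3 and 9 in the Ku70 libraries, and a log2 fold change of 4.01 ± 0.37 (SE). In both, MuPOX06509 library S was highest and T lowest, and each Ku70 library held 11 counts or fewer. POX05858 had 230, 293 and 178 counts in the MuPOX06509 libraries, against 8, 14 and 4 in the Ku70 libraries. Its log2 fold change of 4.79 ± 0.38 (SE) was the largest of these 5. The Ku70 order differed from gene to gene: Ku70 library S was highest for POX05858 and lowest for POX05857.

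In the middle of the stretch, POX05859 to POX05863, the rise was smaller. POX05859 had 3.87, 4.75 and 4.59 FPKM in the MuPOX06509 libraries, against 1.74, 1.14 and 1.47 in the Ku70 libraries, a log2 fold change of 1.63 ± 0.23 (SE). POX05860 was the least abundant gene of the stretch in MuPOX06509, with 15, 19 and 16 counts in the MuPOX06509 libraries, against 2, 2 and 3 in the Ku70 libraries. Its scaled count was 7.45 times that in Ku70 (exact 95% interval 3.36 to 19.5, for counting error only). A filter that asks for 3 or more libraries at an FPKM of 1 or more removed POX05860 and no other gene of the stretch.

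POX05861 showed the smallest change of the 15 in the fit of all 6 libraries. It had 4.60, 3.32 and 2.72 FPKM in the MuPOX06509 libraries, against 1.79, 0.62 and 1.39 in the Ku70 libraries, a log2 fold change of 1.53 ± 0.34 (SE). POX05862 had 9.89, 13.60 and 7.68 FPKM in the MuPOX06509 libraries, against 3.21, 1.30 and 1.74 in the Ku70 libraries. The next in number was close to it: POX05863 had 9.45, 10.79 and 7.88 FPKM in the MuPOX06509 libraries, against 2.98, 1.48 and 1.15 in the Ku70 libraries. Both had a log2 fold change of 2.35, with an SE of 0.33 for POX05862 and 0.32 for POX05863. These neighbours were the most abundant of the stretch in Ku70, where library F was the highest for both.

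The stretch ended with POX05864, POX05865 and POX05866, all strongly raised. POX05864 had 107, 104 and 73 counts in the MuPOX06509 libraries, against 0, 6 and 1 in the Ku70 libraries. Its scaled count was 42.3 times that in Ku70 (exact 95% interval 20.3 to 106, for counting error only), and its log2 fold change was 5.33 ± 0.55 (SE). Of its 7 Ku70 counts 6 were in library S, and without that library the log2 fold change was 7.34. POX05865 had 81, 97 and 58 counts in the MuPOX06509 libraries, against 2, 5 and 3 in the Ku70 libraries, a log2 fold change of 4.57 ± 0.40 (SE). POX05865 had the lowest mean FPKM of the 15 genes in Ku70, 0.140 ± 0.0656 (SD, n = 3).

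POX05866 marked the upper edge and had the highest MuPOX06509 level of the stretch. It had 26.02, 21.22 and 15.26 FPKM in the MuPOX06509 libraries, against 0.67, 0.41 and 0.47 in the Ku70 libraries. The lowest MuPOX06509 library was thus far above the highest Ku70 library, and the log2 fold change was 5.35 ± 0.32 (SE). In the fit of all 6 libraries POX05866 and POX05864 had the largest changes of the stretch. Their order rests on the tool, since DESeq2 gave 5.38 for POX05866 and 5.40 for POX05864. It also rests on the libraries: without MuPOX06509 library F, POX05864 had 5.21 and POX05866 5.16. Without Ku70 library S, POX05858 at 5.35 passed POX05866 at 5.24. In limma on log2(FPKM + 1), POX05864 at 2.71 fell below POX05858 at 3.40. The next gene ended the run. POX05867 had 1.81, 1.87 and 1.70 FPKM in the MuPOX06509 libraries, against 1.28, 1.36 and 1.66 in the Ku70 libraries. Although its values did not overlap between the strains, they nearly met, and the log2 fold change of 0.36 ± 0.20 (SE) was not called. Per length, POX05867 was less abundant than POX05866 in MuPOX06509 and more abundant than POX05866 in Ku70.

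By the size of the rise the stretch held 8 genes with a log2 fold change from 4.01 to 5.35, in POX05854 to POX05858 and POX05864 to POX05866, and 7 genes with 1.53 to 2.83. No gene of the stretch lay between 2.83 and 4.01, the values of POX05860 and POX05857. Genes called higher beyond the stretch did: POX05868 at 3.63, POX05870 at 3.86, POX05887 at 3.50 and POX05888 at 3.35. The gap thus holds for the stretch as cut and not for its surroundings. In the stretch, POX05860 and POX05857 are the edges of the gap. Their SE were 0.42 and 0.37, and POX05860 had 7 Ku70 counts in all. This division was made after the values were seen. Among the fits without 1 library, POX05856 was lowest at 3.89 without Ku70 library T and POX05857 at 3.73 without Ku70 library S. From below, POX05860 was highest at 3.01 without Ku70 library T, so the edges of the gap were not fixed. The mean FPKM of the 8 genes was 3.38 to 20.8 in MuPOX06509 and 0.140 to 0.853 in Ku70. That of the 7 genes was 1.08 to 10.4 in MuPOX06509 and 0.150 to 2.08 in Ku70. The ranges of the 8 and the 7 genes overlapped in both strains. Their medians were 9.96 and 4.54 FPKM in MuPOX06509, and 0.457 and 1.33 FPKM in Ku70. Since the genes were split by the ratio of these 2 levels, the split itself favours such a contrast, and nothing is read from it. The order of the genes by FPKM also differed between the strains: POX05866, POX05855 and POX05858 were the highest 3 of the stretch in MuPOX06509, and POX05862, POX05863 and POX05859 in Ku70. The effective lengths implied by counts and FPKM were 940 to 1567 nucleotides for the 8 genes and 1022 to 2462 for the 7.

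From POX05867 to POX05870 genes without a call and genes called higher alternated. POX05868 had 97, 123 and 94 counts in the MuPOX06509 libraries, against 7, 11 and 8 in the Ku70 libraries, a log2 fold change of 3.63 ± 0.29 (SE). POX05869 had 12.59, 10.71 and 10.51 FPKM in the MuPOX06509 libraries, against 15.37, 8.41 and 14.14 in the Ku70 libraries. Its values overlapped, and its log2 fold change of -0.12 ± 0.22 (SE) was 0.039 without Ku70 library F. A gene with no call thus stood between strong rises on both sides.

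POX05870 had 23.08, 24.70 and 17.01 FPKM in the MuPOX06509 libraries, against 1.38, 1.33 and 1.82 in the Ku70 libraries. With 21.6 ± 4.05 FPKM in MuPOX06509 and 1.51 ± 0.270 FPKM in Ku70 (SD, n = 3 each), it reached the highest MuPOX06509 level of the 19 genes called higher, and its log2 fold change was 3.86 ± 0.25 (SE). POX05871 was the last gene called higher, with 127, 194 and 128 counts in the MuPOX06509 libraries, against 21, 27 and 26 in the Ku70 libraries. Its log2 fold change was 2.65 ± 0.27 (SE), and its implied effective length of 4134 nucleotides was the greatest of the 19. POX05872, next in number, had 12, 26 and 9 counts in the MuPOX06509 libraries, against 20, 13 and 15 in the Ku70 libraries. The strains overlapped there, with a log2 fold change of 0.03 ± 0.42 (SE).

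The genes called lower stood on this upper side too. POX05873 had 38.10, 47.16 and 48.12 FPKM in the MuPOX06509 libraries, against 86.04, 71.23 and 123.05 in the Ku70 libraries. Every MuPOX06509 library was below every Ku70 library, and the log2 fold change was -1.03 ± 0.19 (SE). POX05881 had 11.06, 10.54 and 8.51 FPKM in the MuPOX06509 libraries, against 21.67, 15.71 and 22.76 in the Ku70 libraries, a log2 fold change of -0.96 ± 0.18 (SE). In both genes Ku70 library S was the lowest of its strain. Unlike the genes that rose, POX05873 and POX05881 were at middling to high levels in Ku70, with means of 93.4 ± 26.7 and 20.05 ± 3.79 FPKM (SD, n = 3 each).

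Most counts of the 51 genes came from 3 abundant genes that were not called. POX05880 had 3182, 2579 and 2547 FPKM in the MuPOX06509 libraries, against 2106, 2665 and 1823 in the Ku70 libraries. POX05844 had 4839, 3391 and 3434 FPKM in the MuPOX06509 libraries, against 2653, 3852 and 2611 in the Ku70 libraries. In both genes Ku70 library S lay within the MuPOX06509 range and Ku70 libraries F and T below it. POX05882 had 1234, 1194 and 1082 FPKM in the MuPOX06509 libraries, against 1390, 1167 and 1469 in the Ku70 libraries. These 3 genes took 81.7% to 86.0% of the counts of the 51 genes in MuPOX06509 libraries and 80.7% to 86.5% in Ku70 libraries. POX05844 was short, with an implied effective length of 178 nucleotides, which makes its FPKM sensitive to the length used.

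The 13 tested genes without a call below the stretch spanned POX05835 to POX05851, with mean FPKM from 0.590 to 3888 in MuPOX06509 and from 0.520 to 3039 in Ku70. Among them POX05838 had 100.24, 108.38 and 93.25 FPKM in the MuPOX06509 libraries, against 73.02, 77.35 and 61.09 in the Ku70 libraries. Its strains did not overlap, with a log2 fold change of 0.54 ± 0.16 (SE). POX05838 was called higher by DESeq2, by edgeR with DESeq2 size factors and with the library letter as a replicate block, and without Ku70 library S, where the value was 0.65. POX05839 had 25.03, 34.60 and 33.55 FPKM in the MuPOX06509 libraries, against 13.06, 25.15 and 16.35 in the Ku70 libraries. Its strains overlapped at Ku70 library S; the log2 fold change was 0.79 ± 0.25 (SE), and 1.15 with a call without that library. POX05839 was also called higher with all 6 libraries by DESeq2, at 0.80, and with the replicate block, at 0.84, and without MuPOX06509 library F, at 0.92. POX05845, at 40.02 ± 4.33 FPKM in MuPOX06509 and 48.9 ± 15.6 FPKM in Ku70 (SD, n = 3 each), was called lower without Ku70 library S, with a log2 fold change of -0.46.

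The rest of that lower side was close to even. POX05837 averaged 129.9 ± 8.41 FPKM in MuPOX06509 and 123.9 ± 12.1 FPKM in Ku70, and POX05841 averaged 44.1 ± 3.14 FPKM in MuPOX06509 and 41.8 ± 1.39 FPKM in Ku70 (SD, n = 3 each). The log2 fold changes of POX05835, POX05836, POX05842, POX05843 and POX05846 ran from -0.14 to 0.30. Of these, POX05835 was barely expressed, with 8 to 12 counts in each of the 6 libraries. POX05842, with a log2 fold change of 0.27, lay slightly higher in every MuPOX06509 library than in every Ku70 library.

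On the upper side, the 13 tested genes without a call had log2 fold changes of -0.16 to 0.66. POX05874 had the largest, 0.66 ± 0.21 (SE), with 5.91, 4.82 and 4.92 FPKM in the MuPOX06509 libraries, against 2.97, 3.25 and 3.95 in the Ku70 libraries; its strains did not overlap. POX05875 had 16.13, 29.01 and 27.07 FPKM in the MuPOX06509 libraries, against 16.58, 20.68 and 17.06 in the Ku70 libraries. In FPKM, though not in scaled CPM, its MuPOX06509 library F lay below all Ku70 libraries. Without that library the log2 fold change of POX05875 was 0.65 and it was called higher. POX05876, POX05877, POX05878, POX05879, POX05883 and POX05885 had log2 fold changes of -0.10 to 0.56. POX05879 was the steadiest of them, at 62.4 ± 1.65 FPKM in MuPOX06509 and 58.1 ± 3.50 FPKM in Ku70 (SD, n = 3 each). Its strains overlapped in FPKM but not in scaled CPM, where every MuPOX06509 library was the higher.

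The 4 genes that were not tested were low in both strains. POX05840 had 3, 0 and 1 counts in the MuPOX06509 libraries, against 3, 1 and 0 in the Ku70 libraries. POX05848 had 4, 3 and 5 counts in the MuPOX06509 libraries, against 5, 2 and 11 in the Ku70 libraries. Neither showed separate strains. POX05849 had 2, 0 and 3 counts in the MuPOX06509 libraries, against 1, 2 and 6 in the Ku70 libraries, and POX05884 had 5, 1 and 4 counts in the MuPOX06509 libraries, against 5, 7 and 2 in the Ku70 libraries. The ratio of scaled counts, MuPOX06509 over Ku70, had an exact 95% interval of 0.194 to 5.60 for POX05840, for counting error only. It was 0.306 to 1.53 for POX05848, 0.153 to 1.93 for POX05849 and 0.296 to 1.80 for POX05884. At this depth a small difference could thus be missed in all 4. Only the interval of POX05840 reached 2.86, the ratio of POX05861 and the smallest of the stretch. A count of 0 allows up to 3 counts, or 0.197 to 0.205 CPM, by counting error alone. None of the 51 genes was without counts in all 6 libraries.

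**Figure D3:**
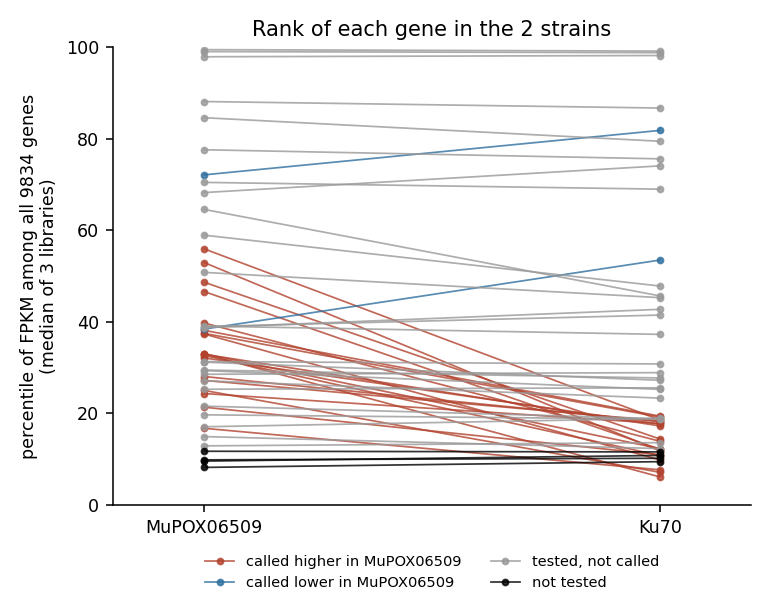
Percentile of each gene's FPKM among all 9834 genes, as the median of the 3 libraries of MuPOX06509 (left) and of Ku70 (right), joined by a line per gene. The genes called higher, in red, lie between 16.7 and 56.0 in MuPOX06509 and between 6.12 and 19.4 in Ku70.

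Set among all 9834 genes, the 19 genes called higher were from the low end of expression in Ku70. A call higher in MuPOX06509 itself favours genes that are low in Ku70. The count filter also kept genes with enough counts in the MuPOX06509 libraries alone, for example POX05860 with 2, 2 and 3 Ku70 counts. The low Ku70 level is therefore no separate result about these genes. Their median percentile by FPKM was 33.0 in MuPOX06509 and 13.9 in Ku70. The ranges were 16.7 to 56.0 in MuPOX06509 and 6.12 to 19.4 in Ku70. At the raised level 17 of them were still below the median gene, as the plot of percentiles shows. The exceptions were POX05866 and POX05870, at percentiles 53.0 and 56.0 in MuPOX06509. The median of all genes' mean FPKM was 18.96 in MuPOX06509 and 18.5 in Ku70.

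**Figure D4:**
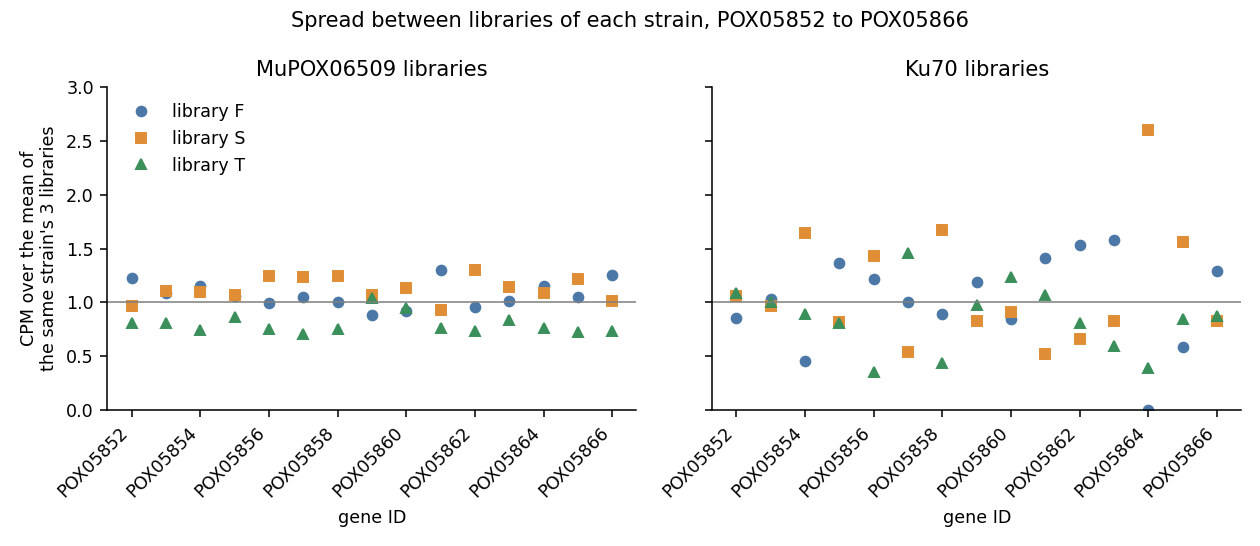
Scaled CPM of each gene of POX05852 to POX05866 over its mean in the 3 libraries of the same strain, with MuPOX06509 on the left and Ku70 on the right, and a symbol per library. MuPOX06509 library T lies lowest for 13 of the 15 genes, while no Ku70 library is lowest for more than 6.

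Within MuPOX06509 most of the 15 genes of the stretch ranked the libraries in a similar way. Library T was the lowest for 13 of the 15 genes, library F for 2 and library S for none; T was the lowest for 32.9% of all genes tested and for 45.7% of the 444 genes called higher. The exceptions were POX05859 and POX05860, where F was the lowest. Library S was the highest for 10 genes and F for 5, against 25.7% and 43.5% of all genes tested. Library S was the lowest for 25.9% of all genes tested and F for 41.2%. The median gene stood at 1.05, 1.10 and 0.760 times its strain mean in the 3 MuPOX06509 libraries. Of the 4 genes called higher outside the stretch, POX05868, POX05870 and POX05871 were also lowest in T, and POX05850 in F.

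Within Ku70 there was no such common order. Library F was lowest for 5 of the 15 genes, S for 6 and T for 4. Over all genes tested the shares were 32.5%, 40.8% and 26.6%. The median SD was 22.0% of the mean FPKM in MuPOX06509 and 46.9% in Ku70. However, 9 of the 15 genes had fewer than 20 counts in every Ku70 library. Counting error at such counts widens the SD and mixes the order. Whether the Ku70 libraries varied more beyond it was not tested. The plot of spread between libraries shows POX05864 farthest out, through its 0, 6 and 1 Ku70 counts. Ku70 library S, which was nearer to MuPOX06509 across all genes, was the highest Ku70 library for 5 of the 15 genes. Ku70 library F was the highest for 7 and T for 3. Over all genes tested, S was the highest for 37.2%, F for 31.6% and T for 31.2%.

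The boundaries at POX05835 and POX05885 were set by number, and calls continued beyond them. Just outside, POX05834 and POX05886 were not called, with log2 fold changes of 0.02 ± 0.19 (SE) and -0.26 ± 0.16 (SE); just inside, POX05835 and POX05885 had -0.12 ± 0.35 (SE) and -0.10 ± 0.22 (SE). POX05832 was called higher, with 9.39, 14.74 and 12.57 FPKM in the MuPOX06509 libraries, against 2.19, 1.99 and 2.39 in the Ku70 libraries. POX05833 was not tested. Above, POX05887 was called higher, with 9.42, 9.77 and 7.79 FPKM in the MuPOX06509 libraries, against 1.13, 0.67 and 0.63 in the Ku70 libraries. POX05888 was also called higher, with a log2 fold change of 3.35 ± 0.37 (SE). Genes called higher thus recurred on both sides, parted by genes that were not called, not tested or, for POX05873 and POX05881, called lower.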

How the data were processed

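Per the file headers, the authors' values are 1 expected count and 1 FPKM per gene ID and library, in 6 libraries. Tools named in the submitters' processing notes, without their roles, are DESeq2, RSEM 1.2.12, BWA 0.7.10-r789 and Bowtie2 2.1.0. Genome build, annotation and strand setting: not given in the sources used here. Overlapping genes may therefore share reads. The members of this gene group, the stretch within it and every comparison were chosen with earlier results of these data known. The rule for genes given in full named POX05852 to POX05866, 3 IDs on each side and any other called gene; the rest were chosen after their values were seen.

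Expected counts were rounded and tested over all genes with edgeR 4.0.16 in R 4.3.3 (TMM, filterByExpr with a minimum count of 10, quasi-likelihood F test, strain as the only term). The SE is the size of the log2 fold change over the square root of F, and is approximate. The test was run on simulated counts drawn from the fit's own means and dispersions. The changes set there were smaller than those of most genes of the stretch. Its outcome is not given here, and nothing about the stretch is read from it. Scaled CPM uses the TMM library sizes. Implied effective length is the count divided by FPKM and library total, which differed by at most 1.02 times between libraries for the 35 genes of this group with over 500 counts. Count ratios have exact binomial (Clopper-Pearson) intervals; these cover counting error only. Alternatives were edgeR with DESeq2 size factors, without the filter and with the letter as a block, DESeq2 1.42.0, limma 3.58.1 on log2(FPKM + 1) for genes that reached an FPKM of 1 in 3 or more libraries, 3 variants of that fit (pseudocounts of 0.1 and 5, no filter), and 6 fits without 1 library. Of the 9834 IDs, 0 equalled an entry in the RefSeq gene table for assembly ASM172317v3, so no names, coordinates or sequences are given. An expected count was fractional in at least 1 library for POX05852, POX05861 and POX05877, whose reads may be shared with other genes. Summaries used Python 3.11.15.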

Additional observations from a re-analysis of the deposited data

How the results depend on the processing

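All 19 genes called higher and both called lower kept their calls in the edgeR and DESeq2 alternatives and in every fit without 1 library. The limma fits kept them too, except that POX05860 was not tested where the FPKM filter applied. That gap cut the longest run of consecutive numbers called higher to 8 in the 3 filtered limma fits, against 15, while it was 15 to 17 in the fits without 1 library. The number called higher was 18 to 22 over all alternatives. The median log2 fold change of POX05852 to POX05866 was 2.15 in limma on log2(FPKM + 1) and 1.93 without its filter. With a pseudocount of 0.1 it was 3.81, and with a pseudocount of 5 it was 1.09. A larger pseudocount lowers the fold of low genes by construction. In the fits without 1 library the median was 3.73 to 4.21. POX05869 had a log2 fold change between -0.32 (without Ku70 library S) and 0.039 (without Ku70 library F). The deviations from the strain mean had r = 0.388 between the F libraries, 0.0628 between the S libraries and 0.0539 between the T libraries, and the S and T libraries did not correlate best with their own letter, so the letters were not taken to pair the libraries; with the letter as a replicate block 22 genes were called higher, POX05838, POX05839 and POX05874 in addition. Depth limits the folds of POX05860, POX05864 and POX05865, which had 7 to 10 Ku70 counts in all.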
